A study of Mus musculus with 6 samples.

Results

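The Fc gamma receptors and a set of inhibitory, scavenger and triggering receptors of phagocytes were followed in mouse bone marrow neutrophils that met live Candida albicans with or without progranulin (PGRN). The 10 genes were chosen by name and grouped by role, with no threshold on a measured value, though earlier results of these data were known. They are the activating Fc gamma receptors Fcgr1, Fcgr3 and Fcgr4, the inhibitory receptors Fcgr2b and Sirpa, the scavenger receptors Msr1, Marco and Cd36, and the triggering receptors expressed on myeloid cells (TREM) Trem1 and Trem3. They are 10 of 54532 genes in the expression table, and all 10 were among the 14807 genes that were tested.

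Neutrophils were taken from bone marrow with magnetic beads against Ly-6G, kept in tubes for 2 hours, and challenged with C. albicans for 6 hours. The WT group has 3 libraries from wild-type mice, and the PGRN KO group has 3 libraries from mice that lack progranulin in all their cells. Strain is given as C57BL/6J for both groups, and both received the fungus at a labelled ratio of 1:1, which the study's text gives differently. Knockout and WT mice were bought from different suppliers and are not stated to be littermates, and the study says that mice were matched for sex and age. The number of mice per tube is not stated in these sources, no library without the fungus was analysed here, and p-values measure the spread between these libraries, which may be technical.

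Fc gamma receptors bind the constant part of IgG, and so let a phagocyte grip a particle that antibody has coated. The activating receptors pass the signal through an adaptor with an ITAM, a tyrosine motif that recruits the kinase Syk, whereas Fcgr2b and Sirpa carry ITIMs, which recruit phosphatases and damp the signal. Scavenger receptors bind modified lipoproteins and microbial surfaces without antibody, and Trem1 and Trem3 signal through the ITAM adaptor Tyrobp, Trem1 being known as an amplifier of inflammation in neutrophils and monocytes.

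Progranulin RNA followed the labels. In FPKM (fragments per kilobase of gene, scaled to library size, a level that allows for length and depth), Grn stood at 168.4, 161.3 and 166.1 in WT against 0.242, 0.206 and 0.747 in PGRN KO. Fragments on genes numbered 17290604 to 17799798 in WT against 17087344 to 18821091 in PGRN KO. The library sizes behind the deposited FPKM were not these sums, and scaling to the plain sums raised the expressed genes of PGRN KO by 0.12 (log2) over those of WT. Log2 differences below are PGRN KO minus WT on log2(FPKM + 1), which shrinks the differences of genes at low levels, and a gene was called at an adjusted p under 0.05 (limma, Benjamini-Hochberg over all tested genes, two-sided).

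The 2 inhibitory receptors fell, none of the 3 activating Fc gamma receptors was called, Msr1 and Marco fell, and Trem3 rose. The activating Fcgr1 missed the threshold narrowly (adjusted p = 0.0502 by limma), with a log2 difference of -0.32 beside -0.31 for Fcgr2b. The call of the inhibitory Sirpa was lost with plain totals (adjusted p = 0.0788 by limma). In all, 4 of the 10 members were called lower and 1 was called higher in PGRN KO, where 9.95% of all tested genes were called lower and 7.94% higher (17.9% in either direction). Among tested genes averaging 1 FPKM or more, as 8 of the members did, 25.6% were called (14.5% lower and 11.1% higher). Of those 8 members, Fcgr2b, Sirpa and Msr1 were called lower and Trem3 higher. With plain totals 3 members were called lower and 1 higher, against 6.31% and 14.5% of tested genes (20.8% in either direction). With limma voom on whole fragments, 5 members were called lower and 1 higher, against 8.46% and 20.2% of tested genes (28.6% in either direction). That fit used the same plain totals as library sizes. The median log2 difference of the members was -0.25, and -0.17 with plain totals, beside medians over all tested genes of 0.0026 and 0.067. The genotypes did not overlap in 5 members that were lower and in 1 that was higher, as for 19.6% and 18.1% of tested genes (37.7% in either direction).

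**Figure D1:**
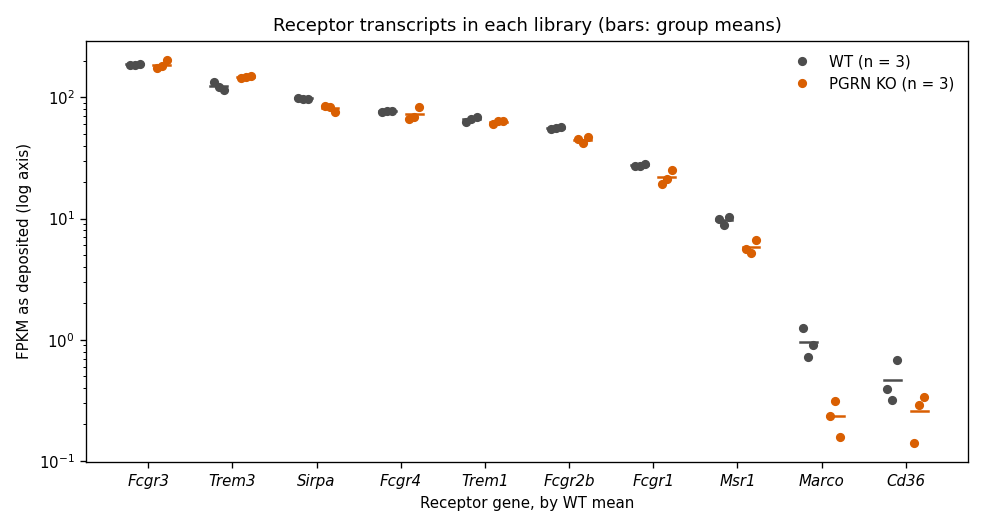
Deposited FPKM (log axis) of the 10 receptor genes, ordered by WT mean, with 1 point for each WT (grey) and PGRN KO (orange) library and a short bar at each group's mean (n = 3 each). The points of the genotypes are apart in Fcgr1, Fcgr2b, Sirpa, Msr1 and Marco, where PGRN KO is lower, and in Trem3, where it is higher.

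The levels ran from some of the most abundant RNAs of these cells to nearly none. In WT the order by mean FPKM was Fcgr3, Trem3, Sirpa, Fcgr4, Trem1, Fcgr2b, Fcgr1, Msr1, Marco and Cd36, and no neighbours in that order overlapped. In PGRN KO, Fcgr4 and Sirpa overlapped, as did Cd36 and Marco, which also changed places. Fcgr3 ranked 251 and Trem3 366 by mean FPKM among the 14807 tested genes, whereas Marco ranked 10533 and Cd36 11723. Among the WT libraries the coefficient of variation went from 1.06% for Fcgr3 to 41.5% for Cd36.

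Of the Fc gamma receptors, 3 sit in 1 stretch of chromosome 1 (GRCm38). Fcgr2b (chr1:170958617-170976547) and Fcgr3 (chr1:171051174-171064935) lie on the minus strand, with Fcgr4 (chr1:171018920-171029761) between them on the plus strand, and Fcgr1 lies apart at chr3:96282909-96293969. RefSeq start regions (GRCm38.p6, 250 bases before to 50 after the start) were held for 7 of the 10 members, and not for Sirpa, Msr1 and Trem3. Those of the 3 neighbours are shown because the inhibitory gene at this locus was called and the activating genes were not, and that of Marco because it had the largest relative fall. The RefSeq starts of Fcgr2b and Fcgr3 lie inside the genes' spans in the expression table. Each is printed 5′ to 3′ along the gene, and capitals mark GAGGAA or its reverse complement TTCCTC, a core bound by PU.1, the ETS factor of myeloid cells.
Fcgr2b, chr1:170976022-170976321, minus strand: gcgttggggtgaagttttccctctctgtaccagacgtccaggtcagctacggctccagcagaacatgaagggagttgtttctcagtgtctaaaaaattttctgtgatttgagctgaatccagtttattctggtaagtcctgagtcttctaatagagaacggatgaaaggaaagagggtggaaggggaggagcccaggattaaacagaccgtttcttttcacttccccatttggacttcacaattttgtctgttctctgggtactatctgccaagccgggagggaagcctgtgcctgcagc
Fcgr3, chr1:171059354-171059653, minus strand: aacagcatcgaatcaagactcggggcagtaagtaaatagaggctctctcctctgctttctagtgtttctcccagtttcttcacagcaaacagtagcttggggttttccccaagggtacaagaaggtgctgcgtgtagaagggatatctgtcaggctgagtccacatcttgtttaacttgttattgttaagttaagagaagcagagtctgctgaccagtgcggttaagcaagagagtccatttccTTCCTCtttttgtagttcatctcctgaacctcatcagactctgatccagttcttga
Fcgr4, chr1:171018676-171018975, plus strand: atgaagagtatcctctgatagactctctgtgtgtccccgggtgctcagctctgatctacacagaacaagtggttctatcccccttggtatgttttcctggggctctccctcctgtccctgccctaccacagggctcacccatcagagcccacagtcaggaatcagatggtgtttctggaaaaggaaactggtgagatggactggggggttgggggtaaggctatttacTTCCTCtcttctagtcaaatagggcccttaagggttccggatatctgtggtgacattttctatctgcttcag
Marco, chr1:120504975-120505274, minus strand: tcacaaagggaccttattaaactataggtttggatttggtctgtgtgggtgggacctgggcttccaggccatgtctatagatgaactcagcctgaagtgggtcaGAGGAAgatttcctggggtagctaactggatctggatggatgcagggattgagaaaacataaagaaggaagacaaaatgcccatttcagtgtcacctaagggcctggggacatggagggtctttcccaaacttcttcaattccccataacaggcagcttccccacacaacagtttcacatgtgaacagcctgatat

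Counted by gene, the core was found on either strand in 5 of the 7, namely Fcgr1, Fcgr3, Fcgr4, Marco and Trem1. Counted by region, it was found in 28.3% of 32851 mouse start regions of the same length. In Fcgr3 and Fcgr4 it stood close to the start, from 6 bases before it in Fcgr3 and from 22 bases before it in Fcgr4. Fcgr3 has another RefSeq start region, not printed, in which the core stood from 15 bases before the start. No match stood in the windows of Fcgr2b and Cd36. TTNNGNAA, a loose C/EBP pattern, matched in 5 members (40.7% of all windows), TTCNNNGAA, the GAS pattern of STAT factors, in Fcgr1 and Trem1 (8.30%), GGGNNTTCC, an NF-kB core, in Fcgr3 alone (5.82%), and TGANTCA, the AP-1 pattern, in none (7.81%). All were searched on both strands, and a pair of the C/EBP matches in Marco overlap. These are matches of letters, and no binding was measured.

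Fcgr2b is the only Fc gamma receptor of the mouse with an ITIM and sets the threshold for activation by IgG complexes. Its FPKM was 54.5, 56.1 and 56.5 in WT and 45.4, 42.2 and 46.9 in PGRN KO. Every PGRN KO library was below every WT library, and the group means were 55.7 ± 1.06 and 44.8 ± 2.40 (SD, n = 3 each). The log2 difference was -0.31 (SE 0.050, 95% interval -0.43 to -0.19, adjusted p = 0.00906 by limma), a mean 19.5% lower, and Fcgr2b was called lower in all 16 alternatives tried, each library left out in turn among them, at -0.34 to -0.19. The values rest on 16379 fragments over the WT and 14470 over the PGRN KO libraries. In these bulk libraries fewer cells that carry the RNA and less RNA per cell cannot be told apart, here and for every gene that follows.

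The activating receptor Fcgr3, of low affinity, was the most abundant of the 10. It had FPKM values of 186.5, 185.5 and 189.3 in WT and of 174.4, 181.0 and 204.4 in PGRN KO. The PGRN KO libraries lay on both sides of the WT libraries, and the log2 difference was -0.0072 (95% interval -0.16 to 0.14, adjusted p = 0.954 by limma). With plain totals it was 0.11 (95% interval -0.035 to 0.26), so its direction turned with the scaling.

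Fcgr4, an activating receptor of myeloid cells, showed 75.7, 77.8 and 76.6 FPKM in WT against 67.0, 68.8 and 83.2 in PGRN KO. Of the PGRN KO libraries, replicates 4 and 5 were below all WT libraries and replicate 6 was above them. The log2 difference was -0.077 (95% interval -0.27 to 0.12, adjusted p = 0.576 by limma) and 0.042 with plain totals. It was called lower in 1 alternative, without PGRN KO replicate 6 (-0.17, adjusted p = 0.0374 by limma).

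The high-affinity receptor Fcgr1 stood at the threshold. Its FPKM was 27.2, 27.1 and 28.3 in WT and 19.5, 21.2 and 25.1 in PGRN KO, so the groups did not overlap. The mean was 20.4% lower, close to the fall of Fcgr2b, but with a wider spread in PGRN KO (SD 2.89 against 0.650). The log2 difference of -0.32 (SE 0.089, 95% interval -0.54 to -0.11) had an adjusted p of 0.0502 by limma and was not called. It passed in 6 of 16 alternatives, among them the fit without PGRN KO replicate 6 (-0.42, adjusted p = 0.0102), and did not pass with plain totals (-0.21, adjusted p = 0.145).

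The balance of activating to inhibitory Fc gamma receptor RNA was set within each library, where the scaling between libraries cancels. The sum of Fcgr1, Fcgr3 and Fcgr4 over Fcgr2b was 5.31, 5.18 and 5.21 in WT and 5.75, 6.42 and 6.66 in PGRN KO. All 3 PGRN KO ratios were above all WT ratios, with a log2 difference of 0.26, and the exact permutation p was 0.10, the smallest that 3 against 3 libraries can give (0.133 after adjustment over 8 ratios). By member, Fcgr3 over Fcgr2b was 3.42, 3.31 and 3.35 in WT and 3.84, 4.29 and 4.36 in PGRN KO, a log2 difference of 0.31, and Fcgr4 over Fcgr2b was 1.39, 1.39 and 1.36 against 1.48, 1.63 and 1.77, a log2 difference of 0.24. Neither pair of groups overlapped (exact permutation p = 0.10 each). Fcgr1 over Fcgr2b overlapped between genotypes at 0.499, 0.483 and 0.501 against 0.429, 0.502 and 0.535.

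**Figure D2:**
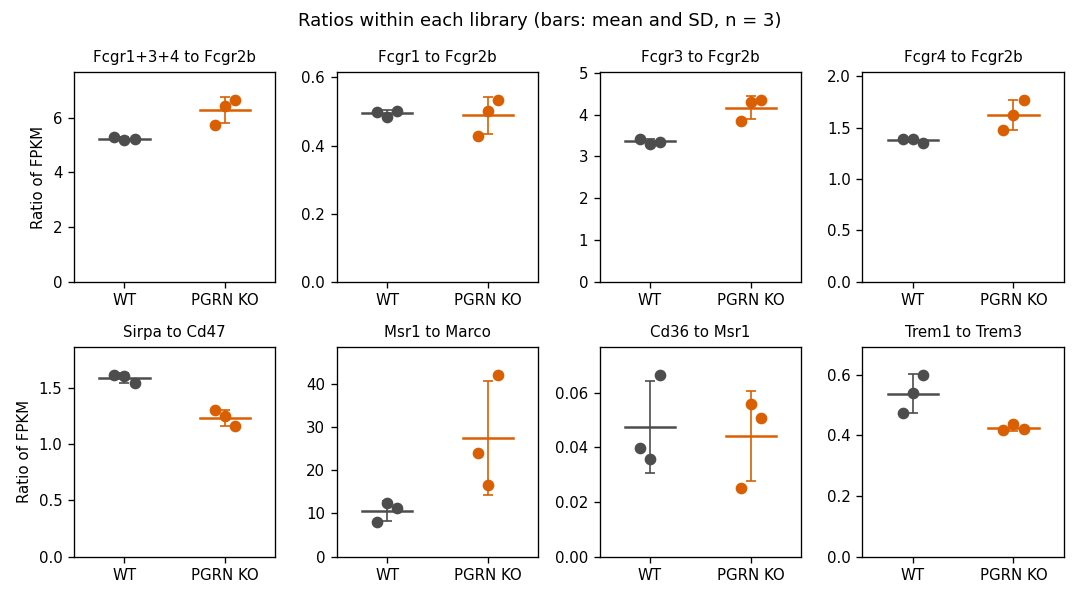
Ratios of FPKM within each library for the 8 pairs or sums compared, with 1 point a library, a line at the group mean and bars of 1 SD (n = 3 WT, n = 3 PGRN KO). The genotypes are apart in 6 of the 8 panels, and they overlap for Fcgr1 to Fcgr2b and for Cd36 to Msr1. Several panels share a gene, and each of the 6 has an exact permutation p of 0.10 (0.133 adjusted). Of single tested genes 37.7% were apart, and no such share was computed for ratios, so the count is descriptive.

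Reads of these genes could be told apart at most positions. Of the 50-base windows of its transcripts, Fcgr2b shared 4.38% with other genes, Fcgr3 among them, and Fcgr3 shared 9.58% with Fcgr2b, while the other 8 members shared none. At 150 bases no window of any member was shared. Fcgr2b also overlaps the antisense gene Gm38204 over 155 exon bases, and reads of the 2 strands cannot be told apart with this kit, but Gm38204 reached at most 0.856 FPKM.

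Sirpa, the receptor that reads CD47 as a signal against engulfment, was the other inhibitory member. Its FPKM was 99.7, 97.8 and 97.7 in WT and 85.0, 82.6 and 76.0 in PGRN KO, with no overlap, and the means were 98.4 ± 1.13 and 81.2 ± 4.66 (SD, n = 3 each). The log2 difference was -0.28 (SE 0.050, 95% interval -0.40 to -0.16, adjusted p = 0.0131 by limma). With plain totals it was -0.16 and the call was lost (adjusted p = 0.0788), as it was without WT replicate 1 (adjusted p = 0.0526) or WT replicate 2 (adjusted p = 0.0558).

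The mean FPKM of its ligand Cd47 was 62.0 ± 1.30 for WT and 65.8 ± 0.433 for PGRN KO (SD, n = 3 each), a log2 difference of 0.084 (adjusted p = 0.171 by limma) that was called with plain totals (0.20, adjusted p = 0.0123). The ratio of Sirpa to Cd47, free of that scaling, was 1.62, 1.61 and 1.54 in WT and 1.30, 1.25 and 1.16 in PGRN KO. Every PGRN KO ratio was lower, with a log2 difference of -0.36 (exact permutation p = 0.10, 0.133 adjusted over 8 ratios). Among the 5 tested genes of the SIRP family and CD47, Sirpa was the 1 called, where 17.9% of all tested genes were called. With plain totals Cd47 was the 1 called instead.

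Msr1, the class A scavenger receptor that takes up modified lipoproteins, had 9.92, 8.84 and 10.2 FPKM in WT against 5.57, 5.20 and 6.70 in PGRN KO. The genotypes were well apart, and the mean was 39.8% lower in PGRN KO (9.67 ± 0.737 against 5.82 ± 0.779, SD, n = 3 each). The log2 difference was -0.65 (SE 0.096, 95% interval -0.88 to -0.42, adjusted p = 0.00658 by limma), and it was called lower in all 16 alternatives. The values rest on 3117 fragments in WT and 2065 in PGRN KO.

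Marco, a class A receptor that binds unopsonized microbes and is best known from macrophages, was near the floor of detection in these cells. Its FPKM was 1.25, 0.716 and 0.910 in WT and 0.233, 0.315 and 0.159 in PGRN KO, which came from 41, 23 and 30 fragments against 8, 11 and 6. Each PGRN KO library was below each WT library, and the mean of PGRN KO was 0.245 of that of WT. On the log2(FPKM + 1) scale the difference was -0.66 (SE 0.11, 95% interval -0.93 to -0.39, adjusted p = 0.0108 by limma). Fitted to whole fragments with limma voom, which does not shrink low levels this way, it was -1.87 (adjusted p = 0.00125). Marco was called in all 15 alternatives that tested it.

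Cd36, the class B receptor for oxidized lipids and thrombospondin, was the lowest member in WT. With FPKM values of 0.394, 0.317 and 0.683 in WT and 0.140, 0.291 and 0.340 in PGRN KO (85 and 52 fragments in all), the genotypes overlapped. Its log2 difference was -0.22 (95% interval -0.49 to 0.058, adjusted p = 0.253 by limma), and it was called in none of 15 alternatives. Msr1 over Marco was 7.91, 12.3 and 11.3 in WT and 23.9, 16.5 and 42.2 in PGRN KO, without overlap (log2 difference 1.31, exact permutation p = 0.10), and rested on the few fragments of Marco. Cd36 over Msr1 overlapped (log2 difference -0.13, exact permutation p = 0.80).

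The genes Trem1 (chr17:48232768-48246924) and Trem3 (chr17:48247777-48258841) lie next to each other on the plus strand of chromosome 17. Trem3 had 133.0, 122.7 and 115.3 FPKM in WT against 145.3, 146.4 and 151.4 in PGRN KO, so that all PGRN KO libraries lay higher. The log2 difference was 0.26 (SE 0.058, 95% interval 0.12 to 0.40, adjusted p = 0.0269 by limma), and 0.38 with plain totals (adjusted p = 0.00749). With 1 library left out the call held without WT replicate 1 and was lost in the other 5 fits (adjusted p 0.0571 to 0.0970), with the difference at 0.21 to 0.31 throughout.

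Trem1 was at 63.0, 66.0 and 69.2 FPKM in WT against 60.5, 63.9 and 63.6 in PGRN KO. Those values overlapped, with a log2 difference of -0.075 (95% interval -0.19 to 0.043, adjusted p = 0.355 by limma) that became 0.044 with plain totals. Trem1 over Trem3 was 0.474, 0.538 and 0.601 in WT and 0.416, 0.436 and 0.420 in PGRN KO, lower in all 3 PGRN KO libraries (log2 difference -0.33, exact permutation p = 0.10, 0.133 adjusted over 8 ratios).

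**Figure D3:**
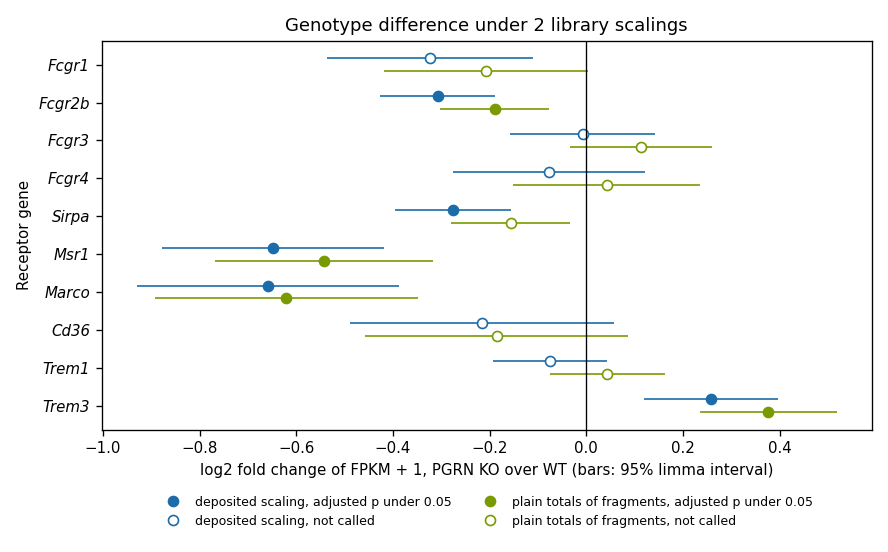
Log2 differences of log2(FPKM + 1), PGRN KO minus WT, of the 10 receptor genes with 95% limma intervals, for the deposited FPKM (blue) and for plain totals of fragments (green), filled where the adjusted p was under 0.05. Msr1 and Marco lie lowest and Trem3 highest, and Fcgr3, Fcgr4 and Trem1 change sign between the scalings with intervals that span 0.

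The other genes of these pathways were counted from lists chosen by role. Beside the counts of this and each later list, 9.95% of all tested genes were called lower and 7.94% higher. Among tested genes averaging 1 FPKM or more the shares were 14.5% and 11.1%. Among 20 ITAM adaptors and proximal kinases, all tested, 5 were called lower, 2 higher and 13 not (median log2 difference -0.077, and 0.040 with plain totals, which called 4 lower and 2 higher). The adaptors themselves are among the most abundant RNAs of these cells. Fcer1g, the partner of the activating Fc gamma receptors, had a mean of 1802 FPKM in WT against 1704 in PGRN KO (log2 difference -0.082, adjusted p = 0.253 by limma), and Tyrobp, the partner of the TREM receptors, had 1326 and 1211 (-0.13, adjusted p = 0.245). Of the called genes, Pik3ap1, an adaptor for phosphoinositide 3-kinase, fell from 284.7 to 183.4 FPKM (-0.64), the docking protein Gab2 from 21.9 to 15.9 (-0.44), the exchange factor Vav1 from 148.3 to 110.0 (-0.43) and Syk from 55.4 to 45.2 (-0.29, adjusted p = 0.00968). Pik3cg, a phosphoinositide 3-kinase of leukocytes, rose from 9.41 to 11.7 (0.29, adjusted p = 0.0287).

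A list of inhibitory receptors and phosphatases outside the members had 23 genes, all tested. It also holds adaptors and relatives that are not themselves inhibitory receptors or phosphatases. Of the 23, 8 were called lower, 5 higher and 10 not (median -0.083, and 0.018 with plain totals, which called 6 lower and 5 higher). Lilrb4a, an ITIM receptor, fell from 276.4 to 176.4 FPKM (-0.65, adjusted p = 0.00529 by limma) and Lilr4b from 479.0 to 358.2 (-0.41, adjusted p = 0.0264), but the pair are close copies whose reads may be split between them, and the call of Lilr4b was lost with plain totals. Cd300a, another ITIM receptor, fell from 32.6 to 22.5 (-0.52). Others rose, among them Lair1, an inhibitory collagen receptor, to a mean of 18.5 FPKM (0.47, adjusted p = 0.00425), the adaptor Dok2 from 3.14 to 4.83 (0.49) and Siglecf, a lectin of eosinophils, from 0.551 to 1.10 (0.44). The phosphatase Ptpn6, which ITIMs recruit, had 302.1 and 281.6 FPKM and was not called (-0.10, adjusted p = 0.150). Inpp5d, the lipid phosphatase that acts behind Fcgr2b, was named after its values were seen for this role, and fell from 25.5 to 20.3 (-0.32, adjusted p = 0.00469).

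Of 13 other Fc receptors and genes of IgG handling, 8 were tested, of which 2 were higher, 1 lower and 5 not called (median -0.12, -0.021 with plain totals). Trim21, the cytosolic antibody receptor, fell from 8.80 to 7.16 FPKM (-0.26, adjusted p = 0.0231 by limma), a call lost with plain totals. The genes that rose, Fcer1a and Ms4a2, are chains of the IgE receptor of basophils and mast cells, at 0.0594 and 0.266 FPKM in WT against 0.631 and 0.718 in PGRN KO (3 and 38 fragments against 35 and 113). Both are also on the list of basophil and mast cell markers, where of the other 3 tested genes Prss34 and Mcpt8, proteases of basophils, were higher and Cpa3 was not called. The whole list, both genes included, had a summed FPKM of 2.04 to 2.47 in WT against 11.0 to 12.5 in PGRN KO, and their part in the result was not tested.

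Scavenger receptors outside the members were called in both directions. Of 20 on the list 11 were tested, and 6 were called lower, 3 higher and 2 not, with a median of -0.31. With plain totals 5 were called lower and 3 higher (median -0.19), against 6.31% and 14.5% of tested genes. Cd68, a lysosomal glycoprotein of phagocytes, fell from 510.7 to 367.0 FPKM (-0.47, adjusted p = 0.00344 by limma), Cxcl16, a membrane chemokine that binds oxidized lipoprotein, from 23.6 to 16.3 (-0.51), and Lrp1, a large endocytic receptor, from 6.84 to 4.06 (-0.63, adjusted p = 0.00480). Olr1, the lectin-like receptor for oxidized lipoprotein, fell from 45.7 to 36.7 (-0.31, adjusted p = 0.0237), a call lost with plain totals. Ager, the receptor for glycated proteins, rose from 1.78 to 3.36 (0.64) and Scarf1, an endocytic receptor, from 2.90 to 4.95 (0.61, adjusted p = 0.00206).

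Of the other TREM family genes with their adaptor and ligand, 7 were tested, and 2 rose, 1 fell and 4 were not called (median -0.10, 0.010 with plain totals). Pglyrp1, a granule protein that binds peptidoglycan and has been described as a Trem1 ligand, rose from 308.7 to 473.1 FPKM (0.61, adjusted p = 0.00219 by limma), and Cd177, a surface protein of neutrophils, from 264.6 to 310.0 (0.23). Treml4, another receptor of the family, fell from 39.2 to 27.2 (-0.51, adjusted p = 0.00906). Among efferocytosis receptors, which take up dying cells, 6 of 11 were tested and 3 fell, 1 rose and 2 were not called (median -0.21). The largest of these changes was in Axl, a receptor kinase for phosphatidylserine bound to Gas6, from 17.1 to 6.88 FPKM (-1.20, adjusted p = 0.000151 by limma). Itgb5 fell from 3.19 to 1.60 (-0.69) and Cd300lb from 32.9 to 23.1 (-0.50), and Itgb3 rose from 1.51 to 2.09 (0.30, adjusted p = 0.0464).

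**Figure D4:**
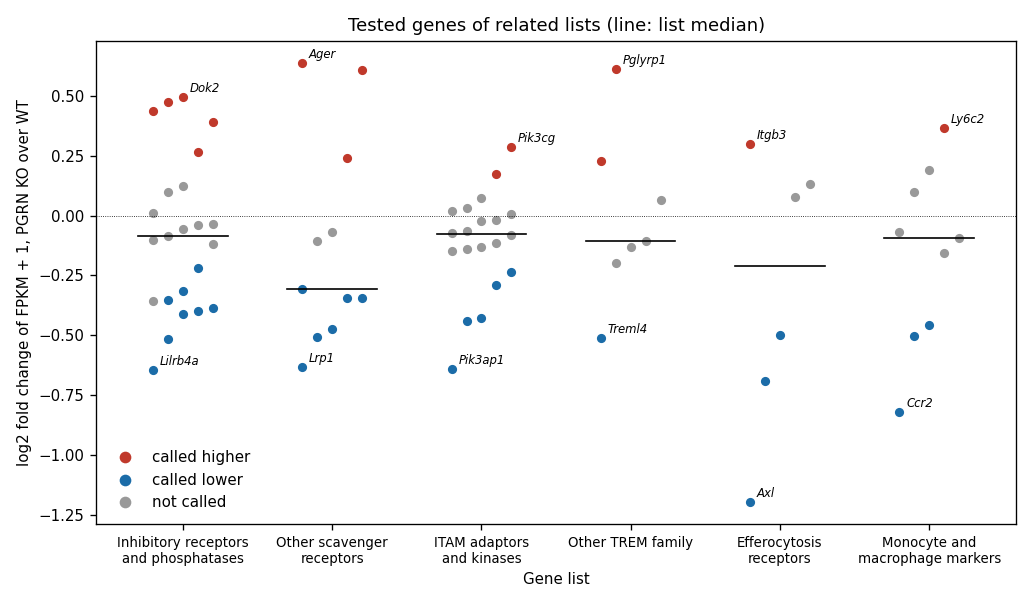
Log2 differences of log2(FPKM + 1), PGRN KO minus WT, of the tested genes of 5 receptor or pathway lists and of the monocyte and macrophage markers, with 1 point a gene, coloured red where called higher, blue where called lower and grey where not called, and a line at each list's median. The other scavenger receptors have the lowest median at -0.31, and the ITAM and inhibitory lists hold genes called in both directions around medians of -0.077 and -0.083, which turn positive with plain totals.

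Markers of other cells moved with genotype, and Msr1 and Marco are also RNAs of monocytes, macrophages and dendritic cells. Neutrophil markers (12 tested, 2 lower, 1 higher and 9 not called, median -0.077, against 0 lower and 3 higher with a median of 0.042 with plain totals) summed to 72377 to 76943 FPKM in WT against 73688 to 83698 in PGRN KO, led by S100a9, S100a8 and Ngp. Of 14 monocyte and macrophage markers 9 were tested, with 3 lower, 1 higher and 5 not called (median -0.094), and the list summed to 527.9 to 533.4 FPKM in WT against 553.0 to 700.7 in PGRN KO. That sum was mostly Ly6c2, a surface antigen of monocytes and immature neutrophils, which rose from 401.1 to 521.2 FPKM (0.37), while the monocyte receptor Ccr2 fell from 3.82 to 1.73 (-0.82) and F13a1 from 28.8 to 20.8 (-0.46). Csf1r and Adgre1 were not called (adjusted p 0.105 and 0.342 by limma), and C1qa, C1qb and C1qc of tissue macrophages gave at most 2 fragments in all libraries of a genotype. Dendritic cell markers summed to 136.4 to 146.0 FPKM in WT against 84.1 to 94.3 in PGRN KO, with 4 of 5 tested markers lower. Most of that sum came from genes of MHC class II presentation. Of the others, Itgax was called lower, from 6.11 to 4.32 FPKM (-0.42, adjusted p = 0.0104 by limma). Flt3 and Zbtb46 averaged under 0.1 FPKM, Siglech gave 1 fragment, and Xcr1 was not called (adjusted p = 0.112 by limma). The part of monocytes, macrophages and dendritic cells in the lower Msr1 and Marco was not tested.

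Markers of early granulocyte stages and of rarer cells were summed in the same way. All 6 tested promyelocyte markers were higher, and their sum was 129.9 to 145.5 FPKM in WT against 610.9 to 672.7 in PGRN KO. B cell markers, of a lineage that carries Fcgr2b, were 3 of 3 higher at sums of 1.68 to 2.97 and 4.10 to 5.26 FPKM, whereas Fcgr2b was lower. Sums for NK and T cell markers (1 tested, higher) were 2.37 to 2.93 and 7.43 to 8.44, for platelet and erythroid markers (3 of 4 higher) 1.76 to 3.39 and 6.04 to 6.69, for eosinophil markers (3 higher and 1 lower of 4) 10.7 to 12.5 and 12.0 to 15.3, and for endothelial markers (1 of 3 lower) 2.78 to 3.49 and 1.75 to 1.99. Most of the eosinophil sum in WT was Ear6, the 1 marker of that list called lower (9.42 to 7.29 FPKM, adjusted p = 0.0136 by limma). The NK and T cell sum was nearly all from its 1 tested gene. Ncr1, Klrb1c, Cd4 and Cd8a of that list each gave at most 2 fragments in a genotype. Pax5, Cd3e, Cd3g and Emcn were at 0 in all libraries. What these shifts contribute to the receptor differences was not tested.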

How the data were processed

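RNA sequencing of 6 libraries (3 WT, 3 PGRN KO) was used, made with an unstranded NEBNext Ultra kit, and no library was left out. The authors deposited FPKM values for 54532 genes. The study's text names HISAT and HTSeq, and the submitters' processing notes name HISAT2 2.0.5, featureCounts 1.5.0-p3, DESeq2 1.20.0 and the builds mm10 and GRCm38. Multiplied by gene length, the deposited FPKM gave whole fragments within 0.05, which returned the depth and covers counting error only.

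Genes averaging 0.1 FPKM or more were compared on log2(FPKM + 1) with limma 3.58.1 (lmFit, eBayes with trend) in R 4.3.3, without a block, since no replicate number is shared between genotypes. Ratios within libraries were compared with exact permutation tests, two-sided, in scipy 1.17.1. The fit across genes was tested on simulated data. No replicate pair was as alike as counting noise alone would make it. The 10 members, the 17 gene lists and the ratios were chosen with earlier results of these data known, so their counts are descriptive. Named genes are the members, Grn, the genes in a ratio, and from each receptor or pathway list up to 5 called genes with the largest log2 differences and the 2 with the highest FPKM, with the leading, called or absent markers of each cell type list. A called marker that the rule also names is not reported here. Alternatives were 2 other pseudocounts, 2 other filters, 3 scalings (plain totals, median of ratios, quantile), eBayes settings, protein-coding genes alone, limma voom on fragments, and each library left out. Median of ratios gave the same factor for all libraries, so its agreement with the main fit was fixed in advance. Motifs and shared windows were read from RefSeq start regions and GENCODE M21 transcripts. The macrophage libraries of the study were not analysed here.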

Additional observations from a re-analysis of the deposited data

How the results depend on the processing

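Of the 10 receptors, Fcgr2b and Msr1 kept their call and direction in all 16 alternatives and Marco in all 15 that tested it, and Cd36 was called in none of 15. Marco and Cd36 are not tested under the filter at 1 FPKM. Fcgr1 was called lower with pseudocounts of 0.1 and 0.5, that filter, limma voom, protein-coding genes alone, and without PGRN KO replicate 6. The calls of Sirpa (lost in 3 alternatives) and Trem3 (lost in 5) are given with their values above, and with 1 library left out 0 to 1 members were called higher and 3 to 6 lower. Directions turned only where no call was made. With 1 library left out Fcgr3 went from -0.074 to 0.040, Fcgr1 to Fcgr2b from -0.092 to 0.068 and Cd36 to Msr1 from -0.35 to 0.23 (log2). Fcgr3 became 0.11 with plain totals and with voom, 0.038 with quantile normalization, 0.0013 without WT replicate 3, 0.040 without PGRN KO replicate 4 and 0.013 without PGRN KO replicate 5. Fcgr4 became 0.042 with plain totals, 0.017 with quantile normalization and 0.044 with voom, and Trem1 0.044 and 0.045 with plain totals and voom. Across all genes, 1175 were called higher and 1473 lower, against 2149 and 934 with plain totals, 2984 and 1252 with voom, and 540 to 913 and 775 to 1248 with 1 library left out (fewer samples). The median-of-ratios factor of the deposited FPKM was 1.00586 in every library, so they were already on that scale. That alternative therefore repeats the main fit and is not a separate check. Why that scale differs from plain totals was not tested. Of the calls 44.4% were higher, 69.7% with plain totals and 70.4% with voom. The voom fit took the plain totals as its library sizes. Directions that voom shares with plain totals are therefore not a separate check of the scaling. The ratio of the activating receptors to Fcgr2b stayed at 0.22 to 0.32 (log2) with 1 library left out and was 0.25 on fragments. Fcgr1 to Fcgr2b turned to 0.068 without PGRN KO replicate 4, and Cd36 to Msr1 to 0.14 without WT replicate 3 and 0.23 without PGRN KO replicate 4. No paired analysis was possible because the genotypes share no replicate number. Marco and Cd36 rest on under 100 fragments a genotype, so counting error is largest for them among the 10 receptors.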
